A study of Mus musculus with 18 samples.

Results

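Medium-chain acyl-CoA synthetases and their glycine-conjugating partners were followed in mouse kidney cortex through 6 genes: Acsm1, Acsm2, Acsm3, Acsm5, Glyat and Keg1. They were taken by gene name from a table of 24062 genes. All 6 were in the table and all 6 passed the filter on low values (at least 1 RPKM in at least 3 libraries), which 13624 genes passed. RPKM is the number of reads per kilobase of transcript, scaled to the depth of the library, so a level set between genes also depends on the length used for each gene.

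The samples were cortex of C57Bl/6 mice of 2 genotypes. Klf15PTKO mice (PTKO) have lost KLF15, a zinc finger transcription factor of the Krüppel-like family, from the proximal tubule, and Klf15fl/fl mice (fl/fl) carry the floxed alleles. Each genotype received DMSO, the vehicle, or AAI, the nephrotoxin aristolochic acid I, for 2 weeks (AA 2wk), or the same 2 weeks of AAI with 2 weeks of remodeling after it (AA 4wk). This gave 6 groups of 3 libraries and 18 libraries in all. The sources used here give neither the Cre line nor the exons removed, the animals' age or the week at which the DMSO cortex was taken, and no group with Cre and intact Klf15 is named. A genotype effect and an effect of the Cre transgene therefore cannot be told apart. The labels do not say whether the 3 libraries of a group came from separate mice, so p-values measure the spread between these libraries only.

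ACSM enzymes sit in the mitochondrial matrix and join a carboxylic acid to coenzyme A. Their substrates are medium-chain fatty acids and small aromatic acids such as benzoate. Glycine N-acyltransferase, the product of Glyat, then moves the acyl group from coenzyme A to glycine, which turns benzoate into hippurate. Acylglycines leave the body in urine, secreted by organic anion transporters of the proximal tubule, and kidney and liver are the main sites of the reaction. Acsm1 is known as a butyryl-CoA synthetase, Acsm2 is a proximal tubule gene of the mouse kidney, and Acsm3 was first described as the SA gene in hypertensive rats. Keg1 (kidney expressed gene 1) belongs to the glycine N-acyltransferase family.

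The targeted gene Klf15 stood at 28.4, 31.9 and 32.6 RPKM in PTKO DMSO libraries, against 53.0, 61.3 and 65.5 RPKM in fl/fl DMSO libraries. The AA 2wk libraries held 12.5, 17.5 and 25.6 RPKM in PTKO, against 22.9, 18.6 and 41.3 RPKM in fl/fl, and the AA 4wk libraries 9.11, 8.81 and 9.53 RPKM in PTKO, against 11.6, 14.6 and 18.8 RPKM in fl/fl. All PTKO libraries lay below all fl/fl libraries in DMSO and at AA 4wk, and the groups overlapped at AA 2wk. In DMSO the log2 fold change of PTKO over fl/fl, -0.93 ± 0.26 (SE), did not pass the threshold in limma over all genes tested (adjusted p = 0.595). Depth ran from 10.7 to 21.2 M reads per library, recovered from the steps between RPKM values, and each of the 6 genes held at least 158 reads in every library. The AA 2wk library numbered 3 stood apart in each genotype, at -7.1 in PTKO and -7.3 in fl/fl on a first principal component that held 81.9% of the variance. The other 4 AA 2wk libraries lay at 34.0 to 48.6 and the 6 DMSO libraries at -90.0 to -66.1, and the AA 2wk fold changes of the 6 genes and the AA 2wk list counts are therefore also given without both. Summed over 15 proximal tubule markers, each detected in every group, the level in DMSO was 6295 to 6900 RPKM in PTKO and 6210 to 7060 RPKM in fl/fl.

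The 4 synthetase genes lie in 1 cluster on mouse chromosome 7 (GRCm38, GENCODE M21, all protein-coding and on the plus strand). Their order is Acsm5 (119519463 to 119545551), Acsm2 (119554340 to 119600690), Acsm1 (119607026 to 119662515) and Acsm3 (119760923 to 119787513). Acsm4, the fifth gene of the cluster (119690026 to 119714565), sits between Acsm1 and Acsm3 and did not exceed 0.0506 RPKM in any library. With it the cluster spans 268 kb. Glyat (12633308 to 12653911) and Keg1 (12695786 to 12719902) lie on the plus strand of chromosome 19, beside Gm4952 (12599974 to 12628251), a further gene of the glycine N-acyltransferase family. Exact runs of 31 bases were seldom shared between the annotated transcripts of these 8 genes, which does not measure looser similarity. Of 28 pairs, which include pairs of a synthetase with an acyltransferase gene, 2 shared any such run. There were 6 such runs for Glyat and Keg1 and 8 for Keg1 and Gm4952. Acsm3 overlaps Eri2 on the opposite strand. Eri2 stood at 1.85 to 5.97 RPKM over the 18 libraries, and whether strand was used in counting is not given in the sources used here.

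Promoter windows are shown for 4 of the genes because Klf15 codes for a DNA-binding protein of a family known for CACCC elements, and because the 6 genes moved in 1 direction after the toxin. Each window holds the 250 bases upstream of the RefSeq start in GRCm38.p6, written 5′ to 3′ on the gene's plus strand, and capitals mark CACCC or its complement GGGTG. The RefSeq start can differ from the GENCODE start. The windows of Acsm5, Acsm1 and the second start of Acsm2 lie inside the gene spans given above. The windows are chr7:119526015-119526264 for Acsm5, chr7:119554090-119554339 for the first of 2 starts of Acsm2, chr7:119760673-119760922 for Acsm3 and chr19:12633058-12633307 for Glyat.
Acsm5: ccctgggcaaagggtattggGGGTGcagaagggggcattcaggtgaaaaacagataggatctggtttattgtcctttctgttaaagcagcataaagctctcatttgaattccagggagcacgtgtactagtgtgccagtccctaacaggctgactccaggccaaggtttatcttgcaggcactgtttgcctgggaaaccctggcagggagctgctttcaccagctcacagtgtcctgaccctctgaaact
Acsm2: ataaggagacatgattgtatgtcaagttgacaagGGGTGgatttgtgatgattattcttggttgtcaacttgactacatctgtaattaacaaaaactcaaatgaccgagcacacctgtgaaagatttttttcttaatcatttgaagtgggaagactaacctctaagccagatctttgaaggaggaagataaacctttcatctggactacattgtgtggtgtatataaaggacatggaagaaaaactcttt
Acsm3: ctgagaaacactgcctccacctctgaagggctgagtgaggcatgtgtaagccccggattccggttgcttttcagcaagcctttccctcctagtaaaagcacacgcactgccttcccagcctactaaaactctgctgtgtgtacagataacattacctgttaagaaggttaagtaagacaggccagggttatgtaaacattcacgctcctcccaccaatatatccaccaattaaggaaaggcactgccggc
Glyat: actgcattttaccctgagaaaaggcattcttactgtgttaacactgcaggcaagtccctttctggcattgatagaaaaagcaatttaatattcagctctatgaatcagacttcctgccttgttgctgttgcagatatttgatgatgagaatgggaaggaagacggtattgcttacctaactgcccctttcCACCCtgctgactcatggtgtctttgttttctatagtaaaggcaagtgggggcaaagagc
The first letter of the match lay 230 bases upstream of the start in Acsm5, 216 in Acsm2 and 60 in Glyat. Searched on both strands, the 5 letters CACCC were found in 3 of the 7 windows of the 6 genes, and all 3 are among those shown. They were found in 52.0% of 32851 promoter windows of the same length, so the share in these genes was no higher than the background. The windows of Acsm1, Acsm3, Keg1 and the second start of Acsm2 held no match, which says only that these letters are not in those windows.

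In DMSO cortex Keg1 and Acsm2 were among the most abundant transcripts by RPKM. Keg1 was at 1853, 1598 and 1426 RPKM in PTKO, against 1763, 1883 and 2176 RPKM in fl/fl, and ranked 19 in PTKO and 12 in fl/fl among all genes by mean level. Acsm2 was at 1190, 1199 and 1092 RPKM in PTKO, against 1218, 985 and 1343 RPKM in fl/fl (rank 28 in PTKO and 26 in fl/fl). In each genotype every Keg1 value lay above every Acsm2 value. This order depends on the length behind RPKM, which the reads and values put at 1730 bases for Keg1 and 7000 for Acsm2, where the longest annotated transcripts have 3041 and 6738. On the longest transcript Keg1 would average 925 per kilobase and Acsm2 1210 in PTKO DMSO, and 1100 and 1230 in fl/fl DMSO, and on the union of annotated exons Acsm2 would also lead. The longest transcript of Glyat, 3296 bases against the 1362 behind its RPKM, would lower its level in the same way. Comparisons of 1 gene between libraries are not touched. Next came Acsm3, with 581, 457 and 564 RPKM in PTKO, against 291, 307 and 498 RPKM in fl/fl, and Glyat, with 455, 512 and 497 RPKM in PTKO, against 590, 496 and 641 RPKM in fl/fl. These genes overlapped each other within each genotype, so their order is not set by these libraries. Acsm1 averaged 112 ± 14.8 RPKM in PTKO and 133 ± 10.8 RPKM in fl/fl, and Acsm5 60.05 ± 5.23 RPKM in PTKO and 63.9 ± 8.62 RPKM in fl/fl (SD, n = 3 each), without overlap between the genes. On the RPKM scale Acsm2 made up 62.2 ± 2.51% of the summed RPKM of the 4 synthetases in PTKO and 67.7 ± 2.89% in fl/fl, and Acsm3 28.6 ± 3.35% in PTKO and 20.7 ± 3.85% in fl/fl. Of the relatives, Gm4952 averaged 3.17 ± 0.311 RPKM in PTKO DMSO and 3.22 ± 1.07 RPKM in fl/fl DMSO, and Glyatl3 did not exceed 0.261 RPKM in any library.

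**Figure D1:**
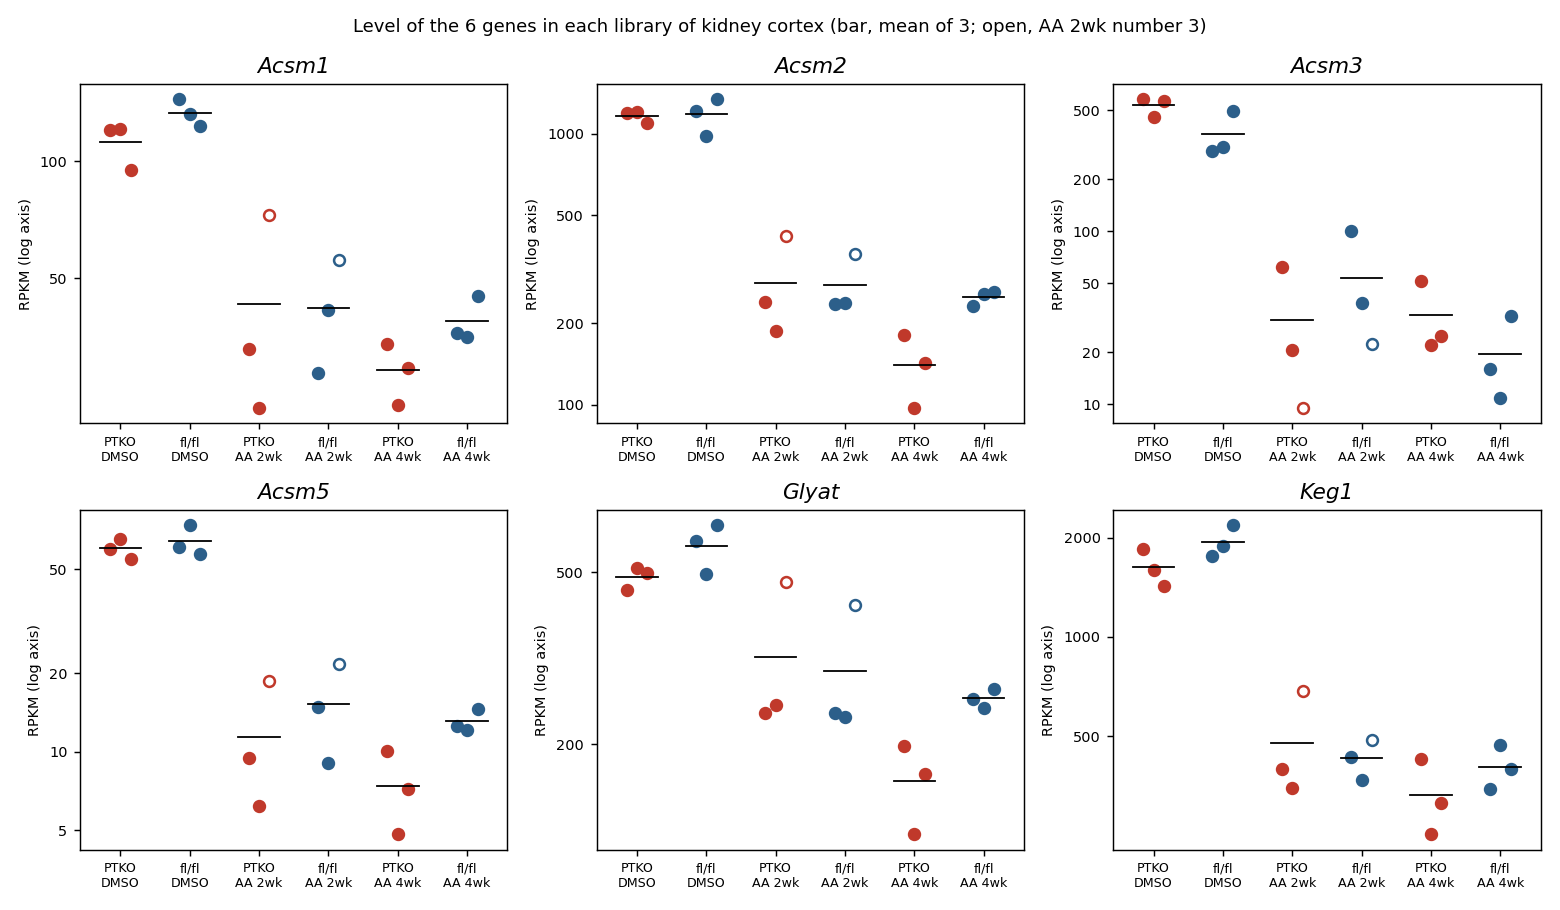
RPKM of each gene in each of the 18 libraries (log axis), with 1 panel per gene, PTKO in red and fl/fl in blue, a bar at the mean of 3 and open symbols for the AA 2wk libraries numbered 3. AA libraries lie below DMSO libraries of the same genotype for every gene but Glyat, whose open PTKO symbol (474 RPKM) lies within the PTKO DMSO values (455 to 512 RPKM).

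After 2 weeks of aristolochic acid all 6 genes fell in both genotypes, and Acsm3 had the lowest mean fraction of its DMSO level left and Glyat the highest. In the limma fit (log2(RPKM + 1), all 18 libraries, calls at an adjusted p of 0.05 over 13624 genes) 6 of 6 were lower in PTKO AA 2wk than in PTKO DMSO, where 14.3% of all genes tested were called lower, and 6 of 6 in fl/fl, where 12.2% were. Their median log2 fold change was -1.97 in PTKO and -2.09 in fl/fl, beside medians of 0.29 and 0.33 over all genes tested in PTKO and fl/fl. In bulk cortex, fewer cells of a type and less RNA per cell cannot be told apart. The summed level of the 15 proximal tubule markers moved with these genes, at 2052 to 4719 RPKM in PTKO AA 2wk and 2209 to 3804 RPKM in fl/fl AA 2wk. Of the 15 markers, 10 fell in PTKO and 11 in fl/fl, and none rose. Macrophage, T cell and tubule injury markers rose in the same libraries, where 45.9% of all genes tested were called higher in PTKO and 50.4% in fl/fl. These were 7 of 7 macrophage markers (summed level 898.6 to 2547 RPKM in PTKO AA 2wk, against 82.5 to 127.4 RPKM in PTKO DMSO, and 439.8 to 2867 RPKM in fl/fl AA 2wk, against 68.1 to 109.3 RPKM in fl/fl DMSO), 5 of 5 T cell markers and 5 of 5 tubule injury markers in each genotype. Their list medians were 3.73, 2.20 and 4.56 in PTKO and 3.48, 2.38 and 5.30 in fl/fl on the log2 scale. Lists of other cells did not all rise. Of 4 fibroblast markers, 0 were called higher in PTKO and 3 in fl/fl, and of 4 podocyte markers, 4 in PTKO and 0 in fl/fl. Of 3 distal convoluted tubule markers, 1 fell in each genotype and none rose. The part of these cell and injury markers in the fall of the 6 genes was not tested.

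Among the synthetases, Acsm2 was at 239, 188 and 420 RPKM in PTKO AA 2wk, against 1092 to 1199 RPKM in PTKO DMSO. In fl/fl it was at 236, 238 and 358 RPKM at AA 2wk, against 985 to 1343 RPKM in DMSO. The groups did not overlap, and a mean of 24.3% of the DMSO level was left in PTKO and 23.4% in fl/fl (log2 fold change -2.12 ± 0.27, adjusted p = 1.87e-05 in limma, and -2.11 ± 0.27, adjusted p = 1.902e-05). Acsm3 was at 61.9, 20.6 and 9.50 RPKM in PTKO AA 2wk, against 457 to 581 RPKM in PTKO DMSO, and at 99.97, 38.5 and 22.2 RPKM in fl/fl AA 2wk, against 291 to 498 RPKM in fl/fl DMSO. It kept 5.74% of its DMSO mean in PTKO and 14.7% in fl/fl (-4.46 ± 0.61, adjusted p = 3.697e-05, and -2.97 ± 0.61, adjusted p = 0.000753 in limma), and 0.0734% of all genes tested had a lower fold change in PTKO and 0.147% in fl/fl. Acsm5 fell too (log2 fold change -2.42 in PTKO and -2.08 in fl/fl), as did Acsm1 (-1.52 in PTKO and -1.69 in fl/fl). For both genes the AA 2wk libraries did not overlap the DMSO libraries of the same genotype. The share of all genes tested without overlap between AA 2wk and DMSO was not counted, so the lack of overlap is not shown to be particular to these genes. Without both libraries numbered 3 the log2 fold change was -2.45 in PTKO and -2.30 in fl/fl for Acsm2, -2.81 in PTKO and -2.36 in fl/fl for Acsm5, and -1.97 in PTKO and -1.92 in fl/fl for Acsm1.

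Of the acyltransferases, Keg1 was at 398, 350 and 686 RPKM in PTKO AA 2wk, against 1426 to 1853 RPKM in PTKO DMSO, and at 434, 369 and 486 RPKM in fl/fl AA 2wk, against 1763 to 2176 RPKM in fl/fl DMSO. Its log2 fold change was -1.82 ± 0.23 in PTKO and -2.18 ± 0.23 in fl/fl (adjusted p = 2.184e-05 and 4.974e-06 in limma), and without both libraries numbered 3 -2.11 in PTKO and -2.27 in fl/fl. Glyat was at 236, 247 and 474 RPKM in PTKO AA 2wk, against 455 to 512 RPKM in PTKO DMSO, so the highest AA 2wk library lay among the DMSO libraries. In fl/fl it was at 237, 231 and 420 RPKM at AA 2wk, against 496 to 641 RPKM in DMSO, without overlap. The log2 fold change was -0.69 ± 0.26 in PTKO (adjusted p = 0.03375) and -1.01 ± 0.26 in fl/fl (adjusted p = 0.00394, limma). The PTKO call was lost in 8 of 29 other settings (adjusted p up to 0.146), among them the fits without PTKO AA 2wk library 1 or 2 and without any 1 of the 3 PTKO DMSO libraries. Without both libraries numbered 3 it was -1.01 in PTKO (adjusted p = 5.114e-05) and -1.29 in fl/fl (adjusted p = 5.321e-06, limma).

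**Figure D2:**
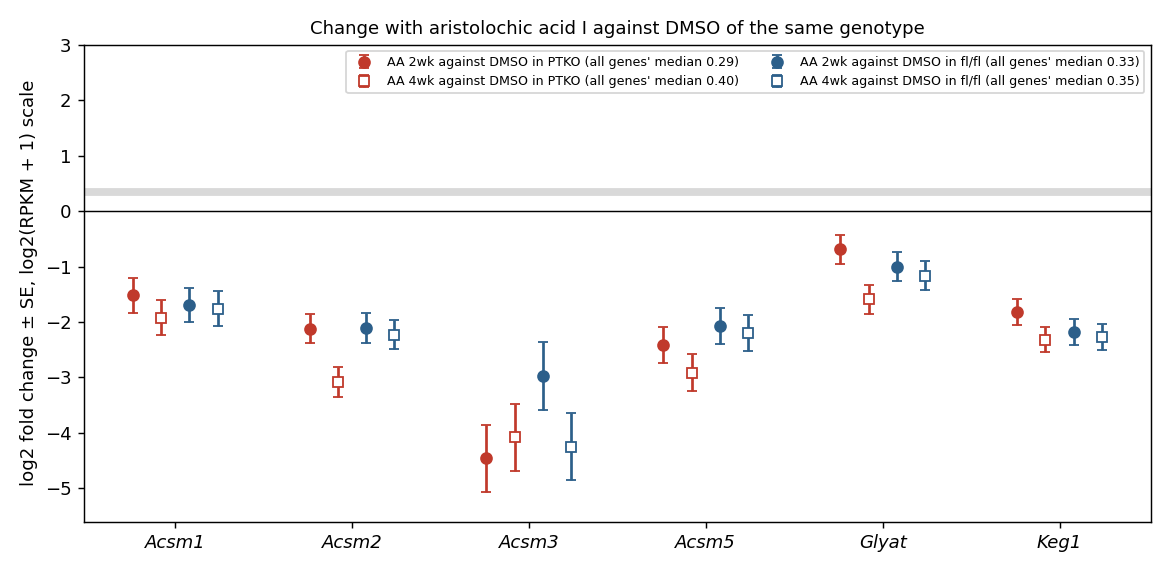
Log2 fold change of AA against DMSO of the same genotype on the log2(RPKM + 1) scale, with its SE, for the 6 genes. Filled circles are AA 2wk and open squares AA 4wk, in red for PTKO and blue for fl/fl, and the gray band covers the medians of all genes tested (0.29 to 0.40). All 24 values lie below 0, from -4.46 for Acsm3 to -0.69 for Glyat.

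The AA 2wk libraries numbered 3 split the genes. In both genotypes this library held the highest AA 2wk value of Acsm1, Acsm2, Acsm5, Glyat and Keg1, and the lowest of Acsm3. In PTKO library 3, Acsm3 stood at 1.78% of its DMSO mean, where libraries 1 and 2 stood at 11.6% and 3.85%. In fl/fl library 3 it stood at 6.07%, where libraries 1 and 2 stood at 27.4% and 10.5%. The same libraries kept 97.0% of the DMSO mean of Glyat in PTKO and 73.0% in fl/fl, and 36.2% of that of Acsm2 in PTKO and 30.3% in fl/fl. They were shallower than the other AA 2wk libraries, at 11.5 M reads in PTKO and 11.9 M in fl/fl against 13.9 to 17.7 M. Kap, the androgen-regulated kidney protein of the proximal tubule and one of the genes most like Acsm3 across the libraries, was at 3.17%, 1.28% and 0.849% of its DMSO mean in PTKO libraries 1, 2 and 3, and at 11.5%, 3.02% and 4.38% in fl/fl. Without both libraries numbered 3, the log2 fold change of Acsm3 was -3.85 in PTKO and -2.49 in fl/fl, and still passed the limma threshold (adjusted p = 3.393e-05 and 0.001179).

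**Figure D3:**
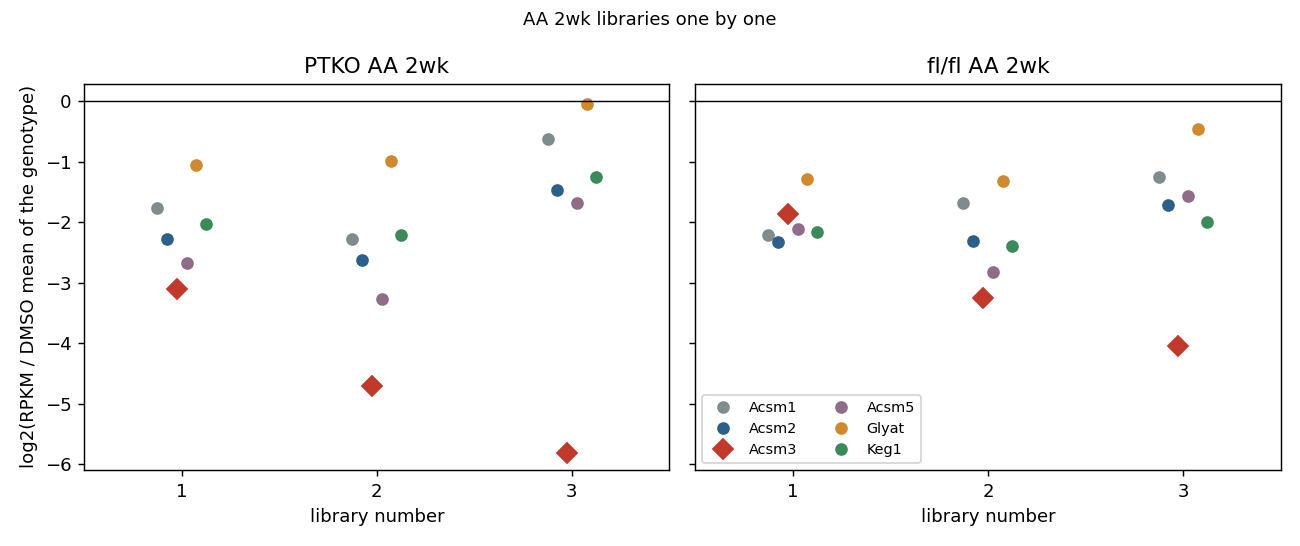
Log2 ratio of each AA 2wk library to the DMSO mean of its genotype, by library number, for PTKO (left) and fl/fl (right). Diamonds mark Acsm3, which is lowest in library 3 of both genotypes, at 1.78% of the DMSO mean in PTKO and 6.07% in fl/fl, while the other 5 genes are highest there.

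At AA 4wk, after the remodeling period, none of the 6 genes was back at its DMSO level. All 6 were called lower than in DMSO in PTKO, where 17.3% of genes tested were, and all 6 in fl/fl, where 14.3% were. Because the same DMSO libraries serve both courses, the AA 2wk and AA 4wk effects are not independent. The median log2 fold change of the 6 was -2.61 in PTKO and -2.22 in fl/fl, beside 0.40 and 0.35 over all genes tested in PTKO and fl/fl. No AA 4wk library overlapped the DMSO libraries of its genotype for any of the 6 genes. How many of all genes tested were separated in this way was not counted, so the separation is not shown to be particular to these genes.

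Acsm2 was at 181, 97.2 and 143 RPKM in PTKO AA 4wk and at 232, 255 and 261 RPKM in fl/fl AA 4wk. This left 12.1% of the DMSO mean in PTKO (-3.08 ± 0.27, adjusted p = 3.784e-07) and 21.1% in fl/fl (-2.23 ± 0.27, adjusted p = 7.103e-06, limma). Acsm3 was at 51.5, 21.9 and 24.9 RPKM in PTKO and at 15.8, 10.8 and 32.2 RPKM in fl/fl. It kept 6.13% of its DMSO mean in PTKO and 5.36% in fl/fl, and 0.0587% of genes tested had a lower fold change in fl/fl. Acsm5 was at 10.1, 4.82 and 7.20 RPKM in PTKO and at 12.6, 12.1 and 14.5 RPKM in fl/fl, and Acsm1 at 33.9, 23.7 and 29.5 RPKM in PTKO and at 36.3, 35.3 and 45.0 RPKM in fl/fl. The log2 fold change of Acsm5 was -2.91 in PTKO and -2.20 in fl/fl, and that of Acsm1 -1.92 in PTKO and -1.76 in fl/fl. Glyat was at 198, 124 and 171 RPKM in PTKO and at 255, 242 and 269 RPKM in fl/fl, which left 33.7% of the DMSO mean in PTKO (-1.59 ± 0.26, adjusted p = 8.056e-05) and 44.3% in fl/fl (-1.16 ± 0.26, adjusted p = 0.001267, limma). Keg1 was at 428, 252 and 314 RPKM in PTKO and at 346, 470 and 398 RPKM in fl/fl, and kept 20.4% in PTKO and 20.9% in fl/fl. All 7 macrophage markers were called higher at AA 4wk in both genotypes, with list medians of 4.87 in PTKO and 4.41 in fl/fl. Of all genes tested, 55% were called higher in PTKO and 51.9% in fl/fl.

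Set directly against AA 2wk, AA 4wk gave no call for any of the 6 genes in either genotype, where 4.16% of genes tested were called in PTKO and 0.125% in fl/fl. In PTKO the values closest to the threshold were those of Acsm2 (-0.96 ± 0.27, adjusted p = 0.05406) and Glyat (-0.90 ± 0.26, adjusted p = 0.06279, limma). Same-numbered libraries of these PTKO groups deviated together (correlations of 0.101, 0.243 and 0.239 over all genes tested). With the library number as a block within them, a setting that was not planned, Acsm2 (adjusted p = 0.0256) and Glyat (adjusted p = 0.0426) passed in limma. These calls rest on a pairing found in the same data. Without both libraries numbered 3 the difference was -0.63 for Acsm2 (adjusted p = 0.07303) and -0.58 for Glyat (adjusted p = 0.04608). Acsm3 was 0.38 ± 0.61 higher at AA 4wk in PTKO and stood at -1.27 ± 0.61 in fl/fl, neither of them called (adjusted p = 0.7162 and 0.4158, limma).

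The fall differed in size between the genes. Within each library the log2(RPKM + 1) difference between a pair of genes was compared between AA and DMSO of the same genotype. These differences were chosen after the values were seen and are therefore described without a test. Glyat minus Acsm2 stood at 0.18 ± 0.206 in PTKO AA 2wk and 0.245 ± 0.109 in PTKO AA 4wk, against -1.25 ± 0.127 in PTKO DMSO (SD, n = 3 each). In fl/fl it stood at 0.06 ± 0.145 at AA 2wk and 0.03 ± 0.106 at AA 4wk, against -1.03 ± 0.0396 in DMSO. AA and DMSO libraries did not overlap in either genotype, with or without library 3. Glyat minus Keg1 also lay higher in AA without overlap, at -0.596 ± 0.137 in PTKO AA 2wk, against -1.73 ± 0.264 in PTKO DMSO, and at -0.587 ± 0.340 in fl/fl AA 2wk, against -1.75 ± 0.173 in fl/fl DMSO. Glyat made up 39.8 ± 2.27% of the summed Glyat and Keg1 RPKM in PTKO AA 2wk, against 23.3 ± 3.19% in PTKO DMSO, and 40.0 ± 5.70% in fl/fl AA 2wk, against 22.9 ± 2.12% in fl/fl DMSO. Without library 3 the AA 2wk share was 39.3% in PTKO and 36.9% in fl/fl.

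Acsm3 had a larger fall than Acsm2 by mean level. The shift of Acsm3 minus Acsm2 from DMSO was -2.34 in PTKO and -0.87 in fl/fl at AA 2wk, and -0.999 in PTKO and -2.02 in fl/fl at AA 4wk. AA and DMSO libraries overlapped in fl/fl at AA 2wk and in none of the other 3 comparisons. The AA 2wk values rest in part on the libraries numbered 3, and without them they were -1.40 in PTKO and -0.19 in fl/fl. In shares of the summed synthetase RPKM, Acsm3 made up 9.51 ± 8.15% in PTKO AA 2wk (13.4% without library 3) and 15.2 ± 3.23% in PTKO AA 4wk, against 28.6% in PTKO DMSO. In fl/fl it made up 14.3 ± 11.0% at AA 2wk (19.1% without library 3) and 5.97 ± 2.89% at AA 4wk, against 20.7% in DMSO. Acsm1 minus Acsm2 shifted by 0.60 in PTKO and 0.41 in fl/fl at AA 2wk, with overlap in fl/fl, and by 1.16 in PTKO and 0.47 in fl/fl at AA 4wk, without overlap. Keg1 minus Acsm2 shifted by 0.30 at AA 2wk and 0.77 at AA 4wk in PTKO, without overlap, and by -0.07 at AA 2wk and -0.03 at AA 4wk in fl/fl, where the libraries overlapped. For Acsm5 the shift was -0.30 at AA 2wk and 0.17 at AA 4wk in PTKO, without overlap, and 0.03 at each time in fl/fl, with overlap.

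Set against fl/fl in each treatment, PTKO gave no call for any of the 6 genes. Of all genes tested, 0.0367% were called in DMSO, 0.00734% each at AA 2wk and AA 4wk, and 0.0514% in the mean over treatments. At an unadjusted p below 0.05 in limma, 673 of the 13624 genes tested passed in DMSO, 913 after AA 2wk, 823 after AA 4wk and 1052 in the mean over treatments. With no true difference, a share of about 0.05 of the genes would be expected to pass. In the mean over treatments only Acsm5 had a 95% interval below 0 (-0.435, interval -0.838 to -0.032), with an adjusted p of 0.6341 in limma. In DMSO the log2 fold changes of PTKO over fl/fl ran from -0.26 for Keg1 to 0.58 ± 0.61 for Acsm3, and Acsm1 was the only member with all 3 PTKO libraries below all 3 fl/fl libraries, as 5.77% of genes tested had. The 95% intervals in DMSO were -0.58 to 0.55 for Acsm2, -0.79 to 0.33 for Glyat, -0.76 to 0.24 for Keg1 and -0.71 to 1.88 for Acsm3, so differences within these bounds were not excluded by these libraries. At AA 2wk no member separated the genotypes, and Acsm3 had the value farthest from 0 (-0.90 ± 0.61, adjusted p = 0.866). Same-numbered AA 2wk libraries of the genotypes deviated together, a pairing found in the same data. Acsm3 was lower in PTKO than in fl/fl at each of the 3 numbers. How many of all genes tested were lower in this way was not counted. With that number as a block, a setting that was not planned, its adjusted p was 0.3423 in limma, and none of the 6 was called.

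At AA 4wk all 3 PTKO libraries lay below all 3 fl/fl libraries for 4 of the 6 genes (Acsm1, Acsm2, Acsm5 and Glyat), an arrangement found in 9.73% of all genes tested. The log2 fold change was -0.87 ± 0.27 for Acsm2 (95% interval -1.44 to -0.30), -0.79 ± 0.33 for Acsm5 (-1.49 to -0.10), -0.66 ± 0.26 for Glyat (-1.22 to -0.10), -0.42 ± 0.31 for Acsm1 and -0.31 ± 0.23 for Keg1. Over all genes tested none of them passed (adjusted p = 0.8124 for Acsm2, Acsm5 and Glyat, limma). Without both AA 2wk libraries numbered 3, which share the estimate of spread, Acsm2 and Glyat were called (adjusted p = 0.04097 each), and with quality weights over all 18 libraries Acsm2 (0.02725), Acsm5 (0.04549) and Glyat (0.03311). The fit of the AA 4wk groups alone and the fits that left out 1 library each called no member. Acsm3 went the other way, at 0.75 ± 0.61 (adjusted p = 0.8381). The summed proximal tubule markers also lay lower in PTKO at AA 4wk, at 1331 to 2072 RPKM against 2301 to 2714 RPKM in fl/fl, and the macrophage markers higher (3426 to 4769 RPKM in PTKO, against 2110 to 3203 RPKM in fl/fl). The lower level was not particular to the proximal tubule. Thick ascending limb markers stood at 1932 to 2963 RPKM in PTKO, against 3389 to 4206 RPKM in fl/fl. Distal convoluted tubule markers stood at 190.6 to 276.8 RPKM in PTKO, against 314.8 to 356.2 RPKM in fl/fl, while collecting duct principal markers overlapped. No marker of these lists was called between the genotypes at AA 4wk. The part of these markers in the genotype difference was not tested. No interaction of genotype with either course was called for a member, where 0.0147% of genes tested were called for AA 2wk and 0.00734% for AA 4wk. The interaction farthest from 0 was that of Acsm3 with AA 2wk (-1.48 ± 0.86, adjusted p = 0.9383, limma), and with AA 4wk that of Acsm2 (-0.85 ± 0.38, adjusted p = 0.9338).

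**Figure D4:**
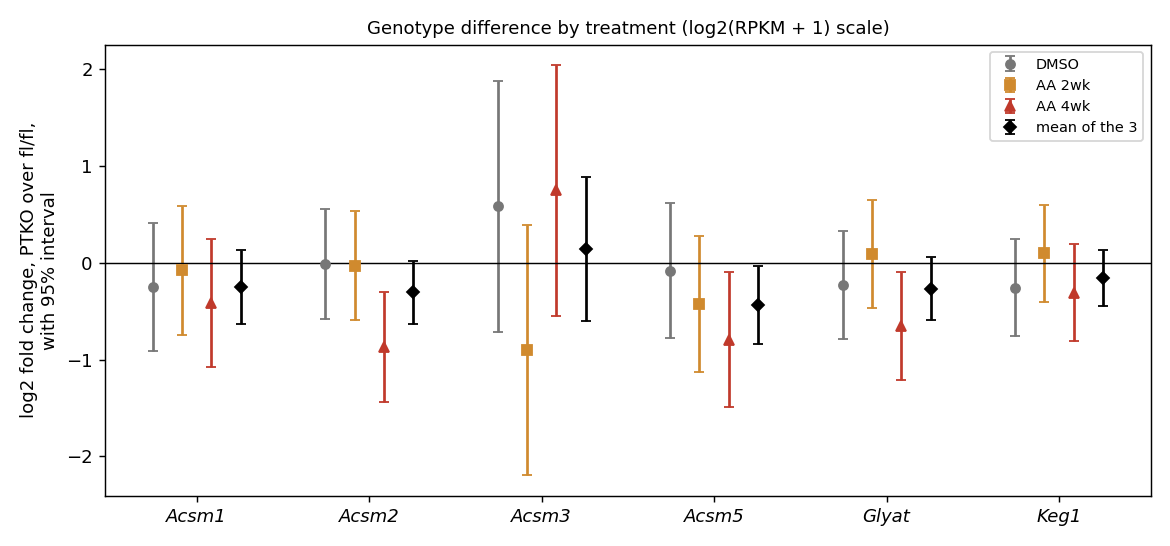
Log2 fold change of PTKO over fl/fl on the log2(RPKM + 1) scale with its 95% interval, for DMSO, AA 2wk, AA 4wk and their mean. At AA 4wk the intervals of Acsm2 (-1.44 to -0.30), Acsm5 (-1.49 to -0.10) and Glyat (-1.22 to -0.10) lie below 0 before adjustment over all genes, and the intervals of Acsm3 are the widest. In the mean that of Acsm5 (-0.838 to -0.032) also lies below 0 before adjustment.

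The steps on either side of the reaction were followed in lists of other genes of the pathway. Most transporters of hippurate and other organic anions fell with the members. Of 10 tested, 9 fell in PTKO at AA 2wk, 8 in fl/fl at AA 2wk, and 9 in each genotype at AA 4wk. Of all genes tested, 14.3% were called lower in PTKO and 12.2% in fl/fl at AA 2wk, and 17.3% in PTKO and 14.3% in fl/fl at AA 4wk. List medians were -2.16 in PTKO and -2.12 in fl/fl at AA 2wk, and -3.34 in PTKO and -2.20 in fl/fl at AA 4wk. Slc22a6 (OAT1), the basolateral organic anion exchanger, fell at AA 2wk (log2 fold change -3.61 ± 0.57 in PTKO and -3.24 ± 0.57 in fl/fl), as did Slc22a8 (OAT3, -2.07 ± 0.56 in PTKO and -2.33 ± 0.56 in fl/fl). For Slc22a7 (OAT2) the value was -5.26 ± 0.55 in PTKO and -3.20 ± 0.55 in fl/fl. The 1 gene that rose, in all 4 comparisons, was Abcc4 (MRP4), an efflux pump (1.57 in PTKO and 1.44 in fl/fl at AA 2wk).

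Glycine supply moved in both directions. Of 21 genes tested for making, importing or breaking down glycine, 11 fell and 3 rose in PTKO at AA 2wk, and 12 fell and 4 rose in fl/fl, with a median of -0.60 in each genotype. Among all genes tested, 45.9% were called higher in PTKO and 50.4% in fl/fl at AA 2wk, and 55% in PTKO and 51.9% in fl/fl at AA 4wk. Called lower at AA 2wk were 14.3% in PTKO and 12.2% in fl/fl. Dmgdh, the mitochondrial dimethylglycine dehydrogenase, fell (-3.09 ± 0.34 in PTKO and -1.92 ± 0.34 in fl/fl), and so did the transporter gene Slc6a20b (-1.85 ± 0.26 in PTKO and -1.83 ± 0.26 in fl/fl). Phgdh, which starts serine and so glycine synthesis from a glycolytic intermediate, rose by 1.37 ± 0.22 in PTKO and 1.78 ± 0.22 in fl/fl. It was chosen for mention after its value was seen. Among 5 other enzymes that use glycine, 3 fell in PTKO and 2 in fl/fl at AA 2wk, among them Gnmt, the glycine N-methyltransferase (-1.36 ± 0.34 in PTKO and -1.74 ± 0.34 in fl/fl), and Gss, the glutathione synthetase (-1.27 ± 0.12 in PTKO and -0.88 ± 0.12 in fl/fl). Gatm, which uses glycine in the first step of creatine synthesis, was at -0.74 ± 0.28 in PTKO (adjusted p = 0.03149) and -0.38 ± 0.28 in fl/fl (adjusted p = 0.2509, limma).

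The other acyl-CoA synthetases did not move as one. Of 16 tested, 7 fell and 6 rose in PTKO at AA 2wk, 5 fell and 6 rose in fl/fl, 8 fell and 6 rose in PTKO at AA 4wk, and 6 fell and 6 rose in fl/fl at AA 4wk. Of all genes tested, 14.3% were called lower and 45.9% higher in PTKO at AA 2wk, and 12.2% and 50.4% in fl/fl. At AA 4wk these shares were 17.3% and 55% in PTKO, and 14.3% and 51.9% in fl/fl. The share of these synthetases that rose was therefore no higher than that of all genes. Aacs, the acetoacetyl-CoA synthetase, fell at AA 2wk (-2.13 ± 0.21 in PTKO and -2.35 ± 0.21 in fl/fl), and so did Slc27a2, the very long-chain acyl-CoA synthetase (-2.40 ± 0.29 in PTKO and -1.87 ± 0.29 in fl/fl). Acsl4 and Acsl5, synthetases of long-chain fatty acids, rose, Acsl4 by 1.20 ± 0.11 in PTKO and 1.16 ± 0.11 in fl/fl, and Acsl5 by 1.10 ± 0.12 in PTKO and 1.24 ± 0.12 in fl/fl. This pair was picked as risers after the values were seen. Of 14 genes of medium- and short-chain beta-oxidation, the competing mitochondrial fate of the acyl-CoA, 11 fell in PTKO and 9 in fl/fl at AA 2wk and none rose. Acadm, the medium-chain acyl-CoA dehydrogenase, fell (-2.09 ± 0.19 in PTKO and -1.56 ± 0.19 in fl/fl), as did Ivd, the isovaleryl-CoA dehydrogenase (-1.73 ± 0.18 in PTKO and -1.65 ± 0.18 in fl/fl). Of 12 genes of coenzyme A supply and turnover, 10 fell in PTKO and 8 in fl/fl at AA 2wk. Among them were Nudt19, a peroxisomal coenzyme A diphosphatase of the kidney (-3.03 ± 0.22 in PTKO and -2.56 ± 0.22 in fl/fl), and Slc25a42, the mitochondrial coenzyme A carrier (-1.30 ± 0.32 in PTKO and -1.79 ± 0.32 in fl/fl). Of the nearest relatives of the members, Gm4952 was at -0.57 ± 0.24 in PTKO (adjusted p = 0.05395) and fell in fl/fl (-0.82 ± 0.24, adjusted p = 0.008839, limma).

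Without both libraries numbered 3, the counts at AA 2wk in PTKO and fl/fl were 9 and 9 lower of the 10 transporters, 13 and 15 lower of the 21 glycine genes, 8 and 7 lower of the 16 other acyl-CoA synthetases, 13 and 12 lower of the 14 beta-oxidation genes, and 9 and 9 lower of the 12 coenzyme A genes. The shares of all genes called lower without these libraries are not given here.

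Of the 3 other protein-coding genes tested that lie within or overlap the chromosome 7 cluster, none was called lower in both genotypes at AA 2wk. Pdilt, a testis disulfide isomerase-like gene that overlaps Acsm5 on the opposite strand, was at 0.14 ± 0.32 in PTKO (adjusted p = 0.7204) and rose in fl/fl (0.77 ± 0.32, adjusted p = 0.04631, limma). Thumpd1, which lies between Acsm4 and Acsm3, rose by 0.38 ± 0.13 in PTKO (adjusted p = 0.02035) and 0.51 ± 0.13 in fl/fl (adjusted p = 0.003612, limma). Eri2, an exonuclease gene that overlaps Acsm3, fell in PTKO (-0.77 ± 0.17, adjusted p = 0.001396) and was at -0.24 ± 0.17 in fl/fl (adjusted p = 0.2181, limma). At AA 4wk Eri2 fell in both genotypes, at -0.66 ± 0.17 in PTKO and -0.48 ± 0.17 in fl/fl (adjusted p = 0.002743 and 0.02092, limma).

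Across the 18 libraries the members correlated with each other on the log2(RPKM + 1) scale at r = 0.651 (Acsm3 and Glyat) to 0.98 (Acsm2 and Keg1). The libraries share the separation of DMSO from AA, which sets much of these values, and genes of the proximal tubule share it too. The gene most like Acsm2 was Pecr (r = 0.9961), a peroxisomal enoyl-CoA reductase, followed by Pbld1 and Ephx2, the soluble epoxide hydrolase (0.9935 each). Acsm5 was most like Aspdh (0.9933), Pbld1 (0.9912) and Pyroxd2 (0.9908), and Acsm1 most like Tst (0.9813), a thiosulfate sulfurtransferase, Pyroxd2 (0.979) and Zmynd10 (0.9775). Keg1 was most like Vwa8 (0.992) and Mgat3 (0.9909), and Glyat most like Sord (0.986), the sorbitol dehydrogenase. Acsm3 shared none of these genes: its 3 nearest were Atp11a (0.9806), a phospholipid flippase, Kap (0.9787) and Sec14l3 (0.9753). Atp11a had its lowest AA 2wk value in library 3 of each genotype, at 9.97% of the DMSO mean in PTKO and 22.0% in fl/fl, and Kap in library 3 of PTKO and library 2 of fl/fl.

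Liver also expresses this pathway, and hepatocyte markers were therefore read in the same libraries. Summed over 8 markers they stood at 41.9 to 58.8 RPKM in PTKO AA 2wk, against 133 to 183 RPKM in PTKO DMSO, and at 33.3 to 57.3 RPKM in fl/fl AA 2wk, against 89.3 to 127 RPKM in fl/fl DMSO. Ttr, which codes for transthyretin, made up most of the sum in DMSO (121 RPKM in PTKO and 80.3 RPKM in fl/fl), while Alb, the albumin gene, averaged 5.04 RPKM in PTKO DMSO and 7.63 RPKM in fl/fl DMSO, and Cyp2c29, a hepatocyte cytochrome P450, did not exceed 0.158 RPKM in any library. Adrenal cortex markers summed to no more than 1.75 RPKM. Xist did not exceed 0.0158 RPKM, and the Y-linked gene Ddx3y stood at 9.82 to 15.8 RPKM over the 18 libraries.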

How the data were processed

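RNA of perfused kidney cortex was sequenced after a stranded total RNA library preparation, per the labels' protocols. The deposited values are RPKM per gene and library, per the file headers. The submitters' processing notes name bcl2fastq 2.19, kallisto and genome build mm10. The version of kallisto, the annotation and the way reads were assigned to genes are not stated there, and RPKM scales each library to its own total, so a rise of many genes lowers the values of others. For 17578 of 17579 genes with values in at least 6 libraries, all but Gpx3, whole reads were recovered from the RPKM steps (tolerance 0.02 reads, 99.994%), which gave each library's depth.

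Genes that reached 1 RPKM in 3 or more libraries were tested on log2(RPKM + 1) in 1 fit over the 6 groups with limma 3.58.1 (intensity trend, robust; statmod 1.5.0, R 4.3.3), two-sided, with Benjamini-Hochberg adjustment over 13624 genes and calls at 0.05. Only the rows of the members and their context are given. The pseudocount makes fold changes of low genes smaller than their true size. Tables were built with Python 3.11.15, pandas 2.3.3 and numpy 2.4.6, and figures with matplotlib 3.10.9. The fit was tested on simulated data first. Lists are described by counts and medians, with no test of a list. The members and lists were chosen with earlier results of these data known. Named beside the members are the 2 called genes of each pathway list with the largest change at AA 2wk in fl/fl, the nearest relatives, Gatm, Slc22a6, Slc22a8 and Acadm, Klf15, and for each member the 3 genes with the highest correlation, of which some are not reported here. Differences between genes within a library, list counts without both libraries numbered 3 and levels on other lengths were added after the values were seen.

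Library numbers were checked as pairs by correlating deviations from group means over all genes tested. They paired the genotypes at AA 2wk (0.436, 0.431 and 0.663) and the AA 2wk and AA 4wk libraries of PTKO (0.101, 0.243 and 0.239), where all 3 exceeded 0.1. No other pair of groups met this, and the link comes from the data and not from the labels. Of the 45 same-numbered pairs of libraries checked, 23 exceeded 0.1. The blocks within the AA 2wk groups and within the PTKO AA groups were not planned. Alternatives were other pseudocounts and filters, median-of-ratios scaling, quantile normalization, sample quality weights, replicate blocks, fits of the compared groups alone, omission of libraries, and limma-voom on recovered reads. No column of the table was left out.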

Additional observations from a re-analysis of the deposited data

How the results depend on the processing

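Over 29 other settings, 688 of 696 values of the 6 genes in the 4 AA effects kept their direction and their side of the threshold, and the 8 that lost the call were all Glyat at AA 2wk in PTKO. With quantile normalization this value was -0.41 (adjusted p = 0.146), with the compared groups alone its adjusted p was 0.07276, and with voom it was -0.66 (adjusted p = 0.05477). The cause was not tested. RPKM scaling puts the median of all genes at 0.29 to 0.40 in these effects, and median-of-ratios scaling puts it at -0.01 to 0.00. The members fell under each scaling, but the share of calls that were higher moved, in PTKO AA 2wk to 49.5% (median-of-ratios) and 46.7% (quantile) from the 76.3% of RPKM, in fl/fl AA 2wk to 50.2% and 44.8% from 80.5%, in PTKO AA 4wk to 49.3% and 44.5% from 76.1%, and in fl/fl AA 4wk to 49.3% and 43.8% from 78.4%.

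Members called in PTKO over fl/fl at AA 4wk numbered 3 with quality weights and 2 without both AA 2wk libraries numbered 3, and averaged over treatments 3 with quality weights, in place of 0. For AA 4wk over AA 2wk in PTKO the count was 1 with quantile normalization, 2 with quality weights, 2 with the replicate block over all 18 libraries, 2 with the block within the PTKO AA groups, 1 without both libraries numbered 3, and 0 to 2 with each library left out. In fl/fl it was 1 (Acsm3, -2.01, adjusted p = 0.023) with quality weights. The replicate blocks changed no other call of a member, and the library numbers of the other groups are only numbers.

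Counts over all genes moved more. In DMSO the genotype count of 5 became 1 with no filter, 1 with quantile normalization, 1177 with quality weights, 2 with the replicate block, 11 with the groups alone, 34 without both libraries numbered 3, and 1 to 10 with each library left out. At AA 2wk the count of 1 became 2 with a pseudocount of 0.1, 2 with no filter, 11 with quality weights, 3 with the replicate block over all libraries, 50 with the block within the AA 2wk groups, and 1 to 110 with each library left out. At AA 4wk the count of 1 became 3 with no filter, 384 with quality weights, 2 with the replicate block and 197 without both libraries numbered 3. Averaged over treatments the 7 became 3 (quantile), 781 (quality weights), 11 (replicate block), 56 (without both), 2 (voom) and 3 to 58 (each left out). AA 4wk over AA 2wk in PTKO gave 567, and 292 (pseudocount 0.1), 1082 (quantile), 1307 (quality weights), 1570 (replicate block), 0 (groups alone), 330 (voom) and 10 to 1600 (each left out). In fl/fl it gave 17, and 10 (pseudocount 0.1), 8 (filter of 5 RPKM), 37 (quantile), 781 (quality weights), 40 (replicate block), 0 (groups alone), 43 (without both), 7 (voom) and 1 to 161 (each left out). The interaction at AA 2wk gave 2, and 158 (quality weights), 1 (replicate block), 1 (groups alone) and 1 to 8 (each left out), and at AA 4wk 1, and 3 (median-of-ratios) and 161 (quality weights).

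Values near 0 that were not called changed sign. PTKO over fl/fl at AA 2wk did so for Acsm2 (0.034, median-of-ratios) and Keg1 (-0.12, quality weights, and -0.10 without both). AA 4wk over AA 2wk did so in PTKO for Acsm3 (-0.40, quality weights, and -0.23 without both) and Acsm1 (0.052 without both), and in fl/fl for Keg1 (0.044, quantile, and 0.005 without both), Acsm1 (0.28, quality weights, and 0.16 without both), Acsm2 (0.024 and 0.074), Glyat (0.071 and 0.13) and Acsm5 (0.16 without both). The interaction at AA 2wk did so for Acsm2 (0.045, median-of-ratios, 0.052, quantile, and 0.013, voom), Keg1 (-0.014, quality weights) and Acsm1 (-0.057 without both), and at AA 4wk for Acsm3 (-0.17, quality weights). With each library left out, the sign changed within these ranges: in DMSO Acsm2 (-0.14 to 0.081) and Acsm5 (-0.16 to 0.022), at AA 2wk Acsm1 (-0.53 to 0.27), Acsm2 (-0.36 to 0.22), Glyat (-0.23 to 0.37) and Keg1 (-0.20 to 0.29), averaged Acsm3 (-0.086 to 0.34), in AA 4wk over AA 2wk Acsm1 (-0.75 to 0.052) and Acsm3 (-0.23 to 1.06) in PTKO, and Acsm1 (-0.31 to 0.16), Acsm2 (-0.23 to 0.074), Acsm5 (-0.43 to 0.16), Glyat (-0.30 to 0.13) and Keg1 (-0.20 to 0.018) in fl/fl, in the interaction at AA 2wk Acsm1 (-0.28 to 0.52), Acsm2 (-0.34 to 0.24) and Glyat (-0.004 to 0.60), and at AA 4wk Acsm3 (-0.20 to 0.58) and Keg1 (-0.25 to 0.13).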
